A study of Mus musculus with 9 samples.

Results

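A set of 10 immediate early transcription factor genes was followed across 3T3-L1 fat cell differentiation and PPAR gamma depletion: Fos, Fosb, Fosl1 and Fosl2, Jun, Junb and Jund, Atf3, Egr1 and Egr2. They were taken by gene symbol, and each was measured, as 10 of the 18193 genes with a probe set of their own on the array. Each gene was read from its brightest probe set, by the mean of the 9 arrays, and the remaining probe sets of Fosl1, Fosl2, Jun, Jund and Egr2 served as a check. 3T3-L1 cells are mouse fibroblasts that become fat cells when given hormones, and their RNA was measured on 9 arrays in 3 groups of 3. In the first group, adipocytes were electroporated with siRNA against PPAR gamma, and in the second with a non-targeting control siRNA, 14 days after induction in both. For induction, IBMX, a phosphodiesterase inhibitor, was given at 0.5 mM with 10 µg/ml insulin and 1 µM of the glucocorticoid dexamethasone. The third group was undifferentiated preadipocytes of the same line. Adipocytes had been detached with trypsin and collagenase for electroporation and seeded again, a step that the labels give for adipocytes alone, so handling and differentiation cannot be told apart when adipocytes are compared with preadipocytes. The sources used here do not state how long after electroporation RNA was taken or how much siRNA each culture received. The series calls the replicates technical, so the p-values reflect the spread between such replicates and no more.

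Immediate early genes are transcribed within minutes of a growth factor, hormone or stress, without new protein synthesis, and most of their messages decay quickly. Fos and Jun family proteins, and Atf3, carry a basic leucine zipper, a coiled segment through which they pair and so grip DNA as the AP-1 complex. The Fos proteins bind DNA only with a partner, while Jun proteins can also pair among themselves. Egr1 and Egr2 are zinc finger proteins that bind GC-rich sites and are restrained by the corepressors Nab1 and Nab2. In 3T3-L1 cells Egr2, also called Krox20, is known to act early in differentiation upstream of Cebpb, and Fosl2 is known in mouse fat cells as a regulator of leptin.

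Promoter windows are shown for Fos, Junb and Fosl2, the members with a window that were higher with PPAR gamma siRNA than with control siRNA, and for Jun and Atf3, for which no such difference was called. They are RefSeq sequences of build GRCm38.p6, from upstream of the start to just past it, at chr12:85473640-85473939 on the plus strand for Fos, chr8:84978699-84978998 on the minus strand for Junb, chr5:32136222-32136521 on the plus strand for Fosl2, chr4:95052173-95052472 on the minus strand for Jun and chr1:191183284-191183583 on the minus strand for Atf3. Capitals mark matches, on either strand, to the motifs named after the sequences.
Fos: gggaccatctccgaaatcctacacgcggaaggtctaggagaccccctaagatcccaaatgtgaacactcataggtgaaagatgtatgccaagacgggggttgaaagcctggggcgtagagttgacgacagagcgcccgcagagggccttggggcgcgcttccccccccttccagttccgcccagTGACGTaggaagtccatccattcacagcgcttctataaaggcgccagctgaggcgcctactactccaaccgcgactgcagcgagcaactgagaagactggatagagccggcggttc
Junb: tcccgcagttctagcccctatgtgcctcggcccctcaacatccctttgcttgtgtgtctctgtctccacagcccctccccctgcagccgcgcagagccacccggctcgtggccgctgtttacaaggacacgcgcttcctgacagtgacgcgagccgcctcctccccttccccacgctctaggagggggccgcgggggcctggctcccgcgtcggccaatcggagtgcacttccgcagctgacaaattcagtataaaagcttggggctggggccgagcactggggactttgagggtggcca
Fosl2: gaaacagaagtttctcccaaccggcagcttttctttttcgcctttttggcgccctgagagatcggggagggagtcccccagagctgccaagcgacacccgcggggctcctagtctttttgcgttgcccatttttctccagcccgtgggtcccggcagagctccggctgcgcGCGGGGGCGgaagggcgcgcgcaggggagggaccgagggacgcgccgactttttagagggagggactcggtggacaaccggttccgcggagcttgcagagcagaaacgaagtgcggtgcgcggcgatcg
Jun: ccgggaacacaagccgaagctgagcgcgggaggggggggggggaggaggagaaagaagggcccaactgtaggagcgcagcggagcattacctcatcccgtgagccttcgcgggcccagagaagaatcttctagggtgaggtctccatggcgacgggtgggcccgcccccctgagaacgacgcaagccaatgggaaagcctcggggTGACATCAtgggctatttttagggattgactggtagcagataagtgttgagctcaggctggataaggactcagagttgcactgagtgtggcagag
Atf3: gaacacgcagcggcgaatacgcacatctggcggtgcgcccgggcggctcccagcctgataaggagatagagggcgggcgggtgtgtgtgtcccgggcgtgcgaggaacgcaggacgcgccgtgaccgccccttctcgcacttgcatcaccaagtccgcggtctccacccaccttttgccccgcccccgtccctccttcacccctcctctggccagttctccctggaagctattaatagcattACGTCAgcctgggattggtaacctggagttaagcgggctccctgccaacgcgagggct

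The search covered 6 motifs on both strands in the windows of 8 members, all but Egr1 and Fosl1. A window held 250 bases before the start and 50 from it on, so sites further upstream were not searched. Egr2 had 5 windows and each other member searched had 1. The core of the cyclic AMP response element, TGACGT, was found in Fos, Atf3 and Egr2, and in 7.51% of all 32851 windows in the table. The variant TGACATCA was found in Jun and in 3.62% of all windows. The EGR site GCGNGGGCG was found in Fosl2 and Fosb and in 5.55% of all windows. The CArG box, bound by serum response factor (SRF), was found in windows of Egr2 and in 1.63% of all windows. The AP-1 site TGANTCA was found in 0 of the 8 members and in 7.81% of all windows. The DR1 repeat, the kind of site that PPAR gamma binds with its partner RXR, was found in 0 members and in 0.0396% of all windows. No match to these motifs was found in the Junb and Jund windows. None of these strings overlapped another within the members' windows. A match is a string of letters in a short window and shows no binding.

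Values are log2 probe set summaries between 2.41 and 14.59, with a median of 4.86 over all arrays. Changes are log2 differences ± SE from 1 limma fit over the 9 arrays, called at an adjusted p (Benjamini and Hochberg, over 45037 probe sets) under 0.05. Group levels are means ± SD (n = 3). Pparg, the siRNA target, stood at 9.59 ± 0.05 with PPAR gamma siRNA, 12.79 ± 0.12 with control siRNA and 8.22 ± 0.12 in preadipocytes, with no overlap, and the siRNA groups differed by -3.20 ± 0.09 (adjusted p = 1.27e-09). The summed signal of 6 adipocyte markers, including Adipoq and Fabp4, lay between 14.77 and 14.83 with PPAR gamma siRNA, 16.21 and 16.32 with control siRNA and 12.39 and 12.50 in preadipocytes (log2 of the sum of linear values). That of 6 preadipocyte and fibroblast markers, including Dlk1 and Pdgfra, lay between 14.77 and 15.13, 13.14 and 13.51, and 15.70 and 15.82 in the same groups. Sums of 5 macrophage markers lay between 7.73 and 8.26, 7.55 and 7.60, and 7.19 and 7.29, and those of 4 endothelial markers between 6.26 and 6.58, 6.24 and 6.47, and 5.94 and 6.19, in the same groups. The lowest markers of these lists were Ptprc, at 3.46, 3.36 and 3.24, and Tek, at 3.41, 3.34 and 3.43 in the same groups. The macrophage markers Csf1r, at 6.06, 6.15 and 6.05, and Lyz2, at 5.81, 5.74 and 5.59, lay above the median of all values in every group, and the endothelial marker Kdr, at 5.35, 5.25 and 4.78, in the adipocyte groups. Of these 9 markers, Cd68 alone passed the test between the siRNAs, and was higher with PPAR gamma siRNA than with control siRNA (1.20, adjusted p = 0.00125). Cd68 was at 7.21, 6.09 and 6.38 with PPAR gamma siRNA and 5.43, 5.33 and 5.33 with control siRNA, above the median of all values. RNA integrity was gauged by the Actb probe set at the 3' end minus that at the 5' end, which lay between 0.54 and 1.25 with PPAR gamma siRNA, 0.91 and 1.30 with control siRNA, and 0.23 and 0.36 in preadipocytes. The spike-in BioB-5 lay between 7.95 and 8.49, 8.44 and 8.73, and 7.08 and 7.60 in the same groups.

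In adipocytes with PPAR gamma siRNA, Fos, Egr1, Junb and Fosl2 were higher than with control siRNA by 2.07-fold to 3.73-fold, and Fosl1 was lower. For Fosl1 and Fosl2 this held on the brighter probe set, and the dimmer one did not pass the test (adjusted p = 0.147 and 0.523). The other 5 members, Fosb, Jun, Jund, Egr2 and Atf3, did not pass the test. Thus 5 of 10 members were called, 4 higher and 1 lower, where 35.9% of all genes were called, 19.9% higher and 16.1% lower. The arrays of the siRNA groups did not overlap for 6 members, and for 44.4% of all genes. The median change was 0.38 over the members and -0.0088 over all genes. Beside these changes the preadipocyte and fibroblast markers were higher with PPAR gamma siRNA in 6 of 6 genes (median 1.73) and adipocyte markers lower in 5 of 6 (median -1.39). The remaining adipocyte marker, Lep, did not pass the test (0.19 ± 0.11, adjusted p = 0.272). It was below the median of all values, at 3.88 with PPAR gamma siRNA and 3.69 with control siRNA. The part of these markers in the members' changes was not tested. In RNA of whole cultures a change in the share of cells of a kind cannot be told apart from a change of RNA per cell.

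**Figure D1:**
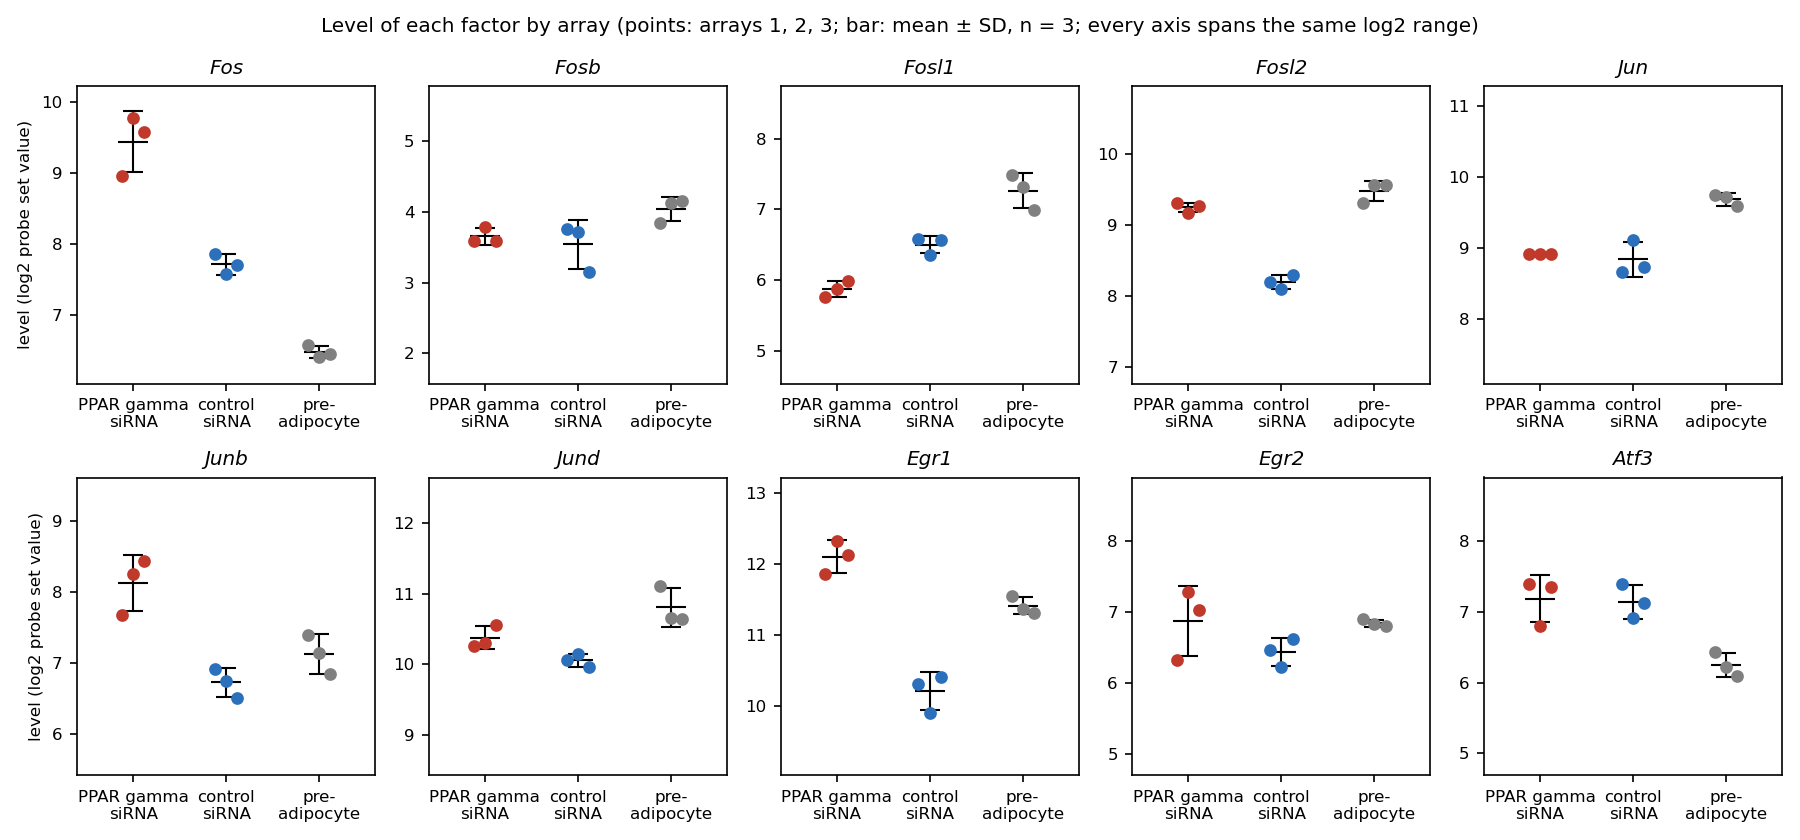
Log2 probe set value of each factor on the 9 arrays, with PPAR gamma siRNA on the left, control siRNA in the middle and preadipocytes on the right of each panel; points are arrays 1 to 3 and bars mean ± SD (n = 3). Fos descends from left to right without overlap, Egr1 is lowest with control siRNA, and Jun separates preadipocytes from both adipocyte groups.

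Fos encodes the AP-1 subunit after which the family is named. It was at 8.95, 9.78 and 9.58 with PPAR gamma siRNA, 7.86, 7.57 and 7.69 with control siRNA, and 6.57, 6.40 and 6.45 in preadipocytes. The 3 groups did not overlap, with a gap of 1.09 between the siRNA groups, and the lowest PPAR gamma siRNA array was replicate 1. Fos was 3.32-fold higher with PPAR gamma siRNA than with control siRNA (log2 change 1.73 ± 0.18, adjusted p = 1.29e-05). Control siRNA adipocytes exceeded preadipocytes 2.36-fold (1.24 ± 0.18, adjusted p = 0.000103), and PPAR gamma siRNA adipocytes exceeded them 7.82-fold (2.97 ± 0.18, adjusted p = 1.93e-07). Of the 10 members, Fos alone exceeded preadipocytes with control siRNA and was higher again with PPAR gamma siRNA, by called differences in each case.

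Fosl1 encodes Fra-1, a Fos relative without the strong activation domain of Fos. Its order was the reverse of that of Fos: it was at 5.77, 5.88 and 5.99 with PPAR gamma siRNA, 6.58, 6.36 and 6.56 with control siRNA, and 7.48, 7.32 and 7.00 in preadipocytes. The groups did not overlap. Fosl1 was lower with PPAR gamma siRNA than with control siRNA (-0.62 ± 0.13, adjusted p = 0.00263), lower in control siRNA adipocytes than in preadipocytes (-0.77 ± 0.13, adjusted p = 0.000336) and lower, in PPAR gamma siRNA adipocytes against preadipocytes, by the most (-1.39 ± 0.13, adjusted p = 6.09e-06). A second, dimmer Fosl1 probe set gave -0.40 ± 0.19 between the siRNAs, which did not pass the test (adjusted p = 0.147), and -1.14 ± 0.19 and -1.55 ± 0.19 when control siRNA and PPAR gamma siRNA were each compared with preadipocytes, both called (adjusted p = 0.000311 and 5.59e-05).

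Fosl2 encodes Fra-2, the other Fos-related antigen. It was at 9.30, 9.18 and 9.26 with PPAR gamma siRNA, 8.20, 8.10 and 8.29 with control siRNA, and 9.31, 9.56 and 9.57 in preadipocytes. Control siRNA arrays lay below all others. Fosl2 was 2.07-fold higher with PPAR gamma siRNA than with control siRNA (1.05 ± 0.10, adjusted p = 5.88e-06) and lower in control siRNA adipocytes than in preadipocytes (-1.29 ± 0.10, adjusted p = 4.35e-07). PPAR gamma siRNA and preadipocyte levels, neighbours in the order, differed by -0.23 ± 0.10, which did not pass the test (adjusted p = 0.0966, 95% interval -0.45 to -0.020), and passed without preadipocyte replicate 1, where it was -0.32 (adjusted p = 0.0382). The dimmer Fosl2 probe set did not share the difference between the siRNAs: it was at 5.77, 5.65 and 5.54 with PPAR gamma siRNA and 5.76, 5.69 and 5.81 with control siRNA (-0.10 ± 0.09, adjusted p = 0.523, 95% interval -0.31 to 0.11). It was lower than in preadipocytes both with control siRNA (-0.75 ± 0.09, adjusted p = 4.04e-05) and with PPAR gamma siRNA (-0.85 ± 0.09, adjusted p = 3.16e-05). The mean of both probe sets gave 0.48 between the siRNAs (adjusted p = 0.000572) and -0.54 between PPAR gamma siRNA and preadipocytes (adjusted p = 0.000237). Why the probe sets differ was not tested.

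Fosb, the remaining Fos relative, was dim, between 3.15 and 4.15 on all arrays and so below the median of all values. It was at 3.58, 3.78 and 3.59 with PPAR gamma siRNA, 3.76, 3.71 and 3.15 with control siRNA, and 3.84, 4.12 and 4.15 in preadipocytes. The siRNA groups overlapped, and the preadipocyte arrays lay above both. The siRNA groups differed by 0.11 ± 0.16 (adjusted p = 0.679, 95% interval -0.23 to 0.45). Control siRNA adipocytes were lower than preadipocytes by a called -0.50 ± 0.16 (adjusted p = 0.0221), a call that was lost without control siRNA replicate 3, where the change was -0.30 (adjusted p = 0.0657). It was also lost without preadipocyte replicate 2 (adjusted p = 0.0777) or 3 (adjusted p = 0.0784) and with the Actb difference as a covariate (adjusted p = 0.114). The difference of PPAR gamma siRNA from preadipocytes, -0.38 ± 0.16, did not pass the test (adjusted p = 0.0881), and passed without control siRNA replicate 3 (adjusted p = 0.0184) and in a fit of those groups alone (adjusted p = 0.0266).

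**Figure D2:**
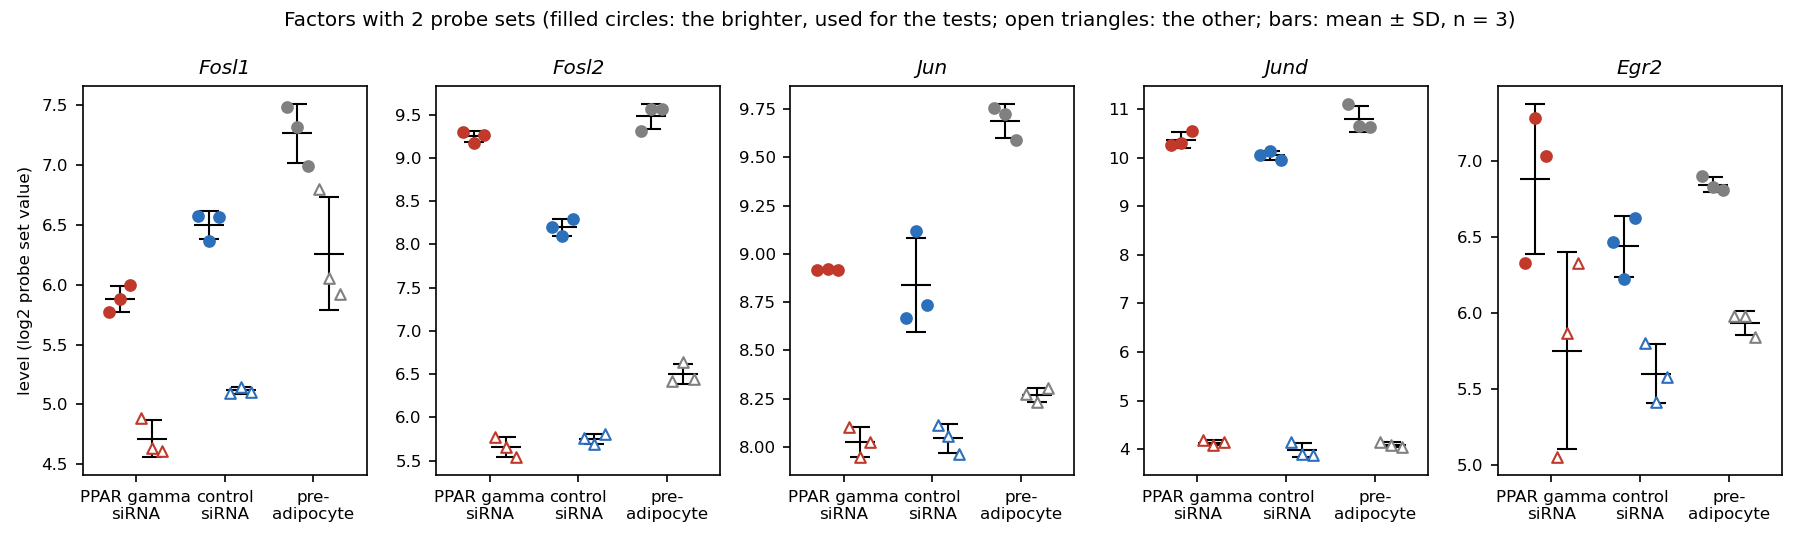
Log2 values of the 5 factors with 2 probe sets, by group from PPAR gamma siRNA to control siRNA to preadipocytes; filled circles are arrays of the brighter probe set, open triangles those of the other, and bars are mean ± SD (n = 3). The brighter Fosl2 probe set is higher with PPAR gamma siRNA than with control siRNA, and the dimmer one overlaps between them.

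Among the Jun partners, Junb alone was called between the siRNAs. Jun and Jund were called for both adipocyte groups against preadipocytes, and Junb for the PPAR gamma siRNA group alone. Junb, which competes with Jun for Fos partners, was at 7.68, 8.26 and 8.44 with PPAR gamma siRNA, 6.91, 6.75 and 6.51 with control siRNA, and 7.39, 7.14 and 6.84 in preadipocytes. All PPAR gamma siRNA arrays lay above all others, and the other groups overlapped. Junb was 2.65-fold higher with PPAR gamma siRNA than with control siRNA (1.40 ± 0.20, adjusted p = 0.000164) and higher than in preadipocytes by 1.00 ± 0.20 (adjusted p = 0.00202). Control siRNA adipocytes and preadipocytes differed by -0.40 ± 0.20, which did not pass the test (adjusted p = 0.121, 95% interval -0.83 to 0.028).

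Jun, the partner that completes the classical Fos-Jun pair, was at 8.91, 8.92 and 8.91 with PPAR gamma siRNA, 8.67, 9.12 and 8.74 with control siRNA, and 9.75, 9.72 and 9.59 in preadipocytes. Adipocyte arrays of both siRNAs overlapped and lay below the preadipocytes. Their difference was 0.076 ± 0.12 (adjusted p = 0.710, 95% interval -0.18 to 0.33). Jun was lower than in preadipocytes with control siRNA (-0.85 ± 0.12, adjusted p = 7.10e-05) and with PPAR gamma siRNA (-0.77 ± 0.12, adjusted p = 0.000288). A second Jun probe set gave smaller changes in the same direction against preadipocytes, -0.22 ± 0.08 with control siRNA (adjusted p = 0.0475) and -0.24 ± 0.08 with PPAR gamma siRNA (adjusted p = 0.0457), and -0.020 ± 0.08 between the siRNAs (adjusted p = 0.906).

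Jund, the Jun relative that most resting cells express steadily, was at 10.25, 10.31 and 10.56 with PPAR gamma siRNA, 10.06, 10.15 and 9.96 with control siRNA, and 11.11, 10.65 and 10.64 in preadipocytes. The groups did not overlap, but the gap between the siRNA groups was 0.11 and their difference, 0.32 ± 0.13, did not pass the test (adjusted p = 0.112, 95% interval 0.023 to 0.61). It passed without preadipocyte replicate 1, which enters through the shared spread (adjusted p = 0.0447). Jund was lower in control siRNA adipocytes than in preadipocytes (-0.75 ± 0.13, adjusted p = 0.000659). The call on PPAR gamma siRNA against preadipocytes, -0.43 ± 0.13 (adjusted p = 0.0305), was lost in 6 of the other settings, among them the fit without preadipocyte replicate 1, where the change was -0.27 (adjusted p = 0.117). The others were the fits without PPAR gamma siRNA replicate 1 (adjusted p = 0.104) or 2 (adjusted p = 0.0911), of the groups compared alone (adjusted p = 0.0522), with a replicate block (adjusted p = 0.0523) and with the mean of both probe sets, where the change was -0.19 (adjusted p = 0.121). The second Jund probe set was dim, between 3.88 and 4.19, and no comparison passed the test there.

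Atf3, a stress-induced leucine zipper factor that represses many of its targets, had a pattern of its own. It was at 7.40, 6.81 and 7.35 with PPAR gamma siRNA, 7.39, 6.91 and 7.12 with control siRNA, and 6.43, 6.22 and 6.09 in preadipocytes. Both adipocyte groups lay above the preadipocytes and overlapped each other. They differed by 0.045 ± 0.17 (adjusted p = 0.894, 95% interval -0.33 to 0.41). Atf3 was higher than in preadipocytes with control siRNA (0.89 ± 0.17, adjusted p = 0.000959) and with PPAR gamma siRNA (0.94 ± 0.17, adjusted p = 0.00114). The first of these calls was lost with the Actb difference as a covariate, where the change was 0.56 (adjusted p = 0.140). The part of RNA integrity in this difference was not tested.

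Egr1, the best-known EGR factor, had the greatest difference between the siRNAs of the 10 members. It was at 11.86, 12.33 and 12.13 with PPAR gamma siRNA, 10.31, 9.90 and 10.41 with control siRNA, and 11.55, 11.37 and 11.31 in preadipocytes. The groups did not overlap, and the gap between the siRNA groups was 1.45. Egr1 was 3.73-fold higher with PPAR gamma siRNA than with control siRNA (1.90 ± 0.15, adjusted p = 1.54e-06). It was lower in control siRNA adipocytes than in preadipocytes (-1.20 ± 0.15, adjusted p = 3.20e-05) and 1.62-fold higher with PPAR gamma siRNA than in preadipocytes (0.70 ± 0.15, adjusted p = 0.00364).

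Egr2 was at 6.33, 7.28 and 7.03 with PPAR gamma siRNA, 6.46, 6.23 and 6.62 with control siRNA, and 6.90, 6.83 and 6.80 in preadipocytes. PPAR gamma siRNA replicate 1 lay among the control siRNA arrays, and the other 2 lay above them. The difference of 0.44 ± 0.20 did not pass the test (adjusted p = 0.135, 95% interval 0.0078 to 0.88), and it was 0.72 without PPAR gamma siRNA replicate 1 (adjusted p = 0.00155). Control siRNA adipocytes differed from preadipocytes by -0.41 ± 0.20 (adjusted p = 0.121), which passed without PPAR gamma siRNA replicate 1 and in a fit of those groups alone (adjusted p = 0.0143 and 0.0142). PPAR gamma siRNA adipocytes differed from preadipocytes by 0.037 ± 0.20 (adjusted p = 0.915, 95% interval -0.40 to 0.47). The other Egr2 probe set passed no comparison (0.15 ± 0.25 between the siRNAs, adjusted p = 0.734). PPAR gamma siRNA replicate 1 was the lowest of its group for 7 of the 10 members, Fos, Fosb, Fosl1, Junb, Jund, Egr1 and Egr2, and for 16 of 33 other immediate early genes and 37.3% of all genes.

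**Figure D3:**
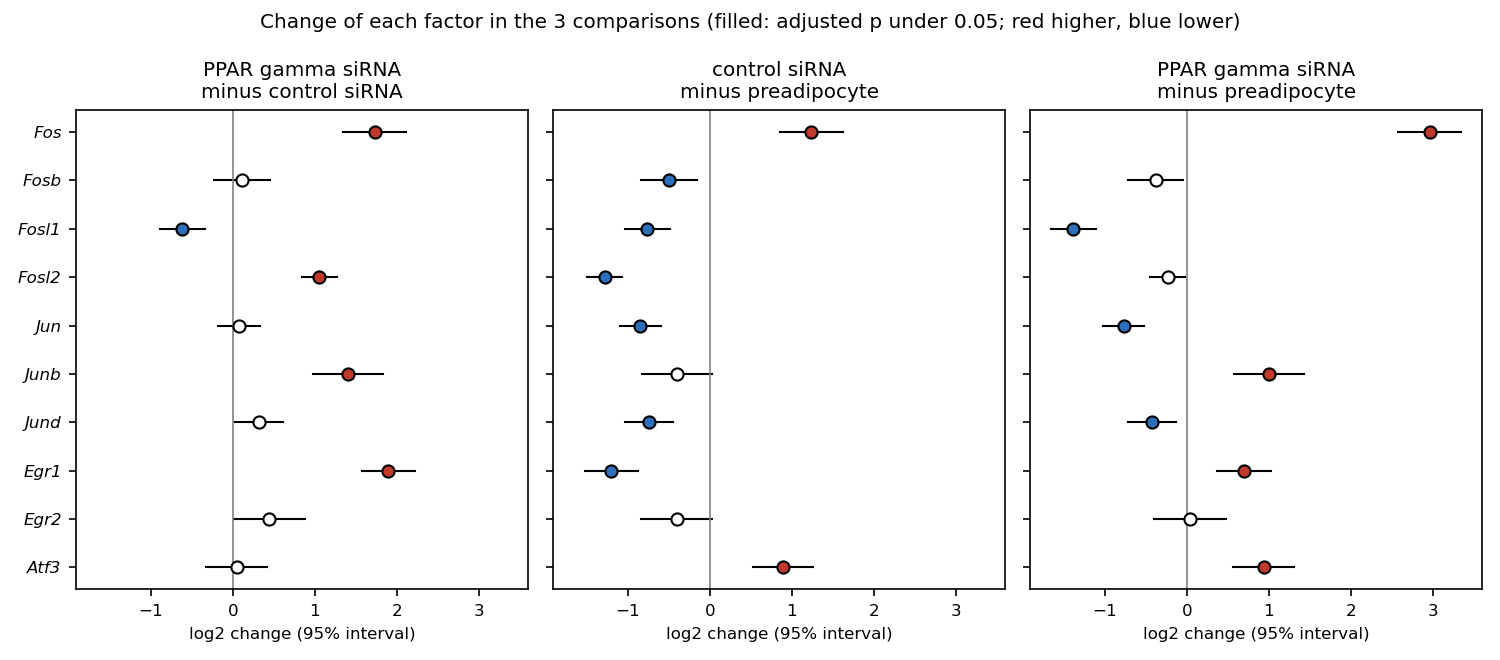
Log2 change of each factor with its 95% interval in the 3 comparisons; filled points passed an adjusted p under 0.05, red higher and blue lower. Fos is higher in each panel, Fosl1 lower in each, and Egr1 and Fosl2 are higher in the left panel and lower in the middle one.

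Against preadipocytes, control siRNA adipocytes had 2 of 10 members higher, Fos and Atf3, and 6 lower, Fosb, Fosl1, Fosl2, Jun, Jund and Egr1. Of all genes, 51.8% were called in this comparison, 27.1% higher and 24.7% lower, and 61.5% had arrays that did not overlap, as 9 members did. The median change was -0.62 over the members and 0.088 over all genes. For PPAR gamma siRNA, 4 members were higher than in preadipocytes, Fos, Junb, Egr1 and Atf3, and 3 were lower, Fosl1, Jun and Jund. In that comparison 36.5% of all genes were called, 19.6% higher and 16.9% lower, and the arrays did not overlap for 9 members and for 49.8% of all genes. The comparisons share arrays in pairs, so their changes are not independent of each other. Egr1 stood at 1.90 between the siRNAs, -1.20 when control siRNA was set against preadipocytes and 0.70 when PPAR gamma siRNA was, and Fos at 1.73, 1.24 and 2.97.

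Other immediate early genes were given by a list of 33, all measured. Between the siRNAs, 14 were higher and 7 lower with PPAR gamma siRNA (median 0.16), where 19.9% of all genes were higher and 16.1% lower. The highest changes were those of Gadd45b, a stress-response gene (1.69 ± 0.15, adjusted p = 3.80e-06), Ier5 (1.35 ± 0.10, adjusted p = 8.71e-07) and the Kruppel-like factor Klf6 (1.13 ± 0.15, adjusted p = 8.82e-05). Gadd45b was at 7.40, 8.03 and 7.78 with PPAR gamma siRNA, against 5.96, 6.27 and 5.90 with control siRNA. Among those lower were the growth regulator Myc (-1.22 ± 0.16, adjusted p = 9.86e-05), the small GTPase Rhob (-0.83 ± 0.13, adjusted p = 0.000392) and Tiparp (-0.60 ± 0.10, adjusted p = 0.000441). Myc was at 7.13, 6.73 and 7.23 with PPAR gamma siRNA, against 8.44, 8.16 and 8.16 with control siRNA, with no overlap. The other EGR genes, named for their family after their values were seen, did not pass the test between the siRNAs, Egr3 at -0.0047 ± 0.10 (adjusted p = 0.982) and Egr4 at -0.24 ± 0.13 (adjusted p = 0.228).

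Against preadipocytes, 11 of these 33 genes were higher and 10 lower with control siRNA (median 0.041). With PPAR gamma siRNA 14 were higher and 6 lower (median 0.24). The shares of all genes were 27.1% higher and 24.7% lower with control siRNA, and 19.6% and 16.9% with PPAR gamma siRNA. With control siRNA the antiproliferative gene Btg2 (1.51 ± 0.12, adjusted p = 5.36e-07), the MAP kinase phosphatase Dusp1 (1.47 ± 0.09, adjusted p = 9.28e-08) and the leucine zipper repressor Nfil3 (1.44 ± 0.14, adjusted p = 3.72e-06) had the largest rises. Sphingosine kinase Sphk1 (-2.37 ± 0.13, adjusted p = 3.29e-08), the kinase Plk2 (-1.98 ± 0.10, adjusted p = 1.45e-08) and Klf4 (-1.94 ± 0.13, adjusted p = 1.17e-07) had the largest falls. The largest rises with PPAR gamma siRNA over preadipocytes were those of Btg2 (1.94 ± 0.12), the orphan nuclear receptor Nr4a1 (1.31 ± 0.16) and Nfkbiz (1.29 ± 0.12), and the largest falls those of Sphk1 (-1.92 ± 0.13), Klf4 (-1.62 ± 0.13) and Plk2 (-1.32 ± 0.10), each with an adjusted p of at most 5.12e-05.

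**Figure D4:**
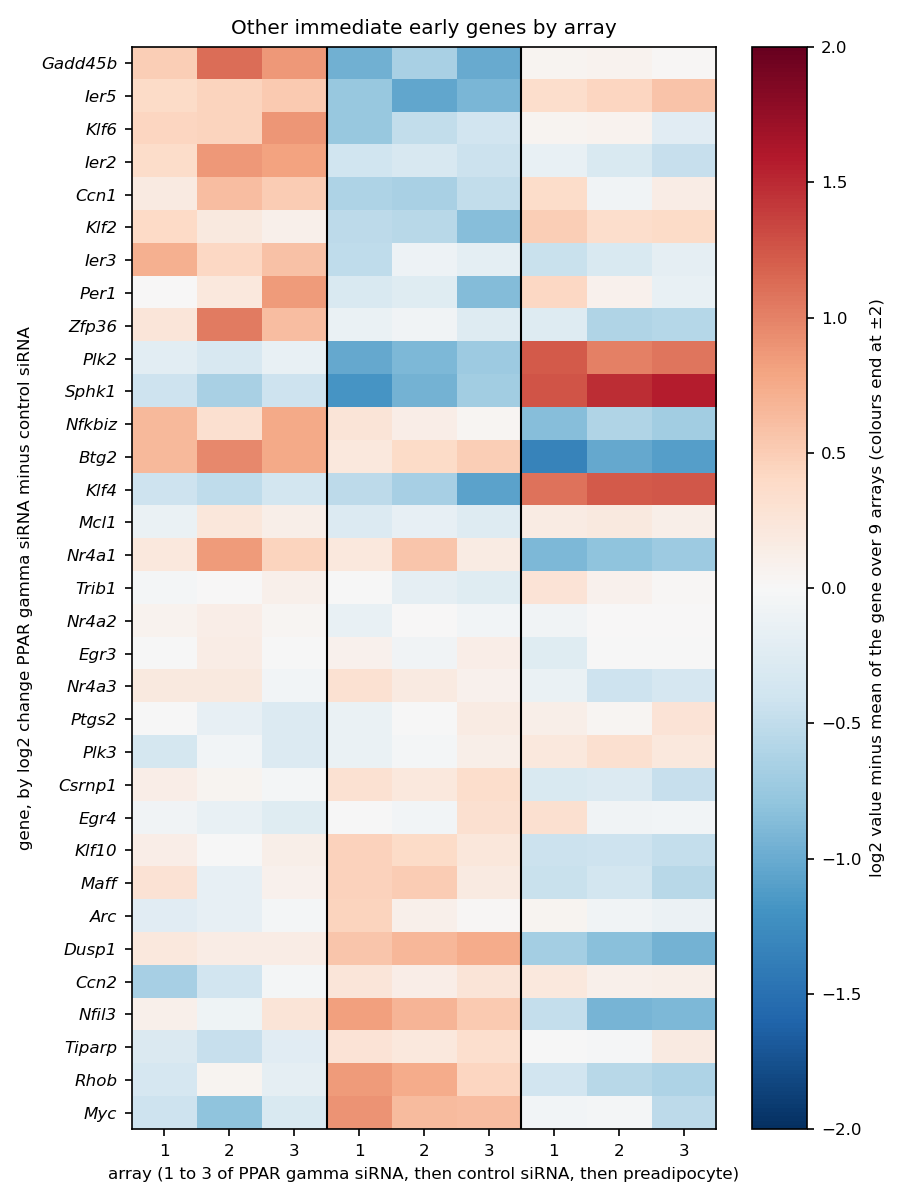
Heat map of the 33 other immediate early genes, each row 1 gene and each column 1 array, in the order PPAR gamma siRNA, control siRNA and preadipocyte; colours give the log2 value minus the gene's mean over the 9 arrays. Gadd45b and Ier5 at the top are low with control siRNA, and Myc and Rhob at the bottom are high there.

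A corepressor that restrains EGR proteins and is itself known as an EGR target, Nab2, differed between the siRNAs. Nab2 was at 8.98, 9.60 and 9.64 with PPAR gamma siRNA, 7.74, 7.56 and 7.41 with control siRNA, and 10.60, 10.38 and 10.29 in preadipocytes. The groups did not overlap. Nab2 was higher with PPAR gamma siRNA than with control siRNA (1.84 ± 0.17, adjusted p = 5.27e-06). It was lower than in preadipocytes with control siRNA (-2.85 ± 0.17, adjusted p = 4.71e-08) and with PPAR gamma siRNA (-1.01 ± 0.17, adjusted p = 0.000608). Of 19 feedback inhibitors, the list that holds Nab2, 7 were higher and 6 lower between the siRNAs (median -0.054). The shares of all genes were 19.9% and 16.1%. Nab1, the other corepressor on this list, had neither its largest rise nor its largest fall in any comparison. The ERK phosphatase Dusp4 had the largest fall, to 4.46, 4.66 and 4.98 with PPAR gamma siRNA, against 8.11, 7.77 and 7.82 with control siRNA (-3.20 ± 0.19, adjusted p = 1.46e-07). Its mean was 4.70 with PPAR gamma siRNA, below the median of all values, and 4.94 in preadipocytes, near it. The sizes of its changes are therefore uncertain. Of all genes, 27.1% were higher and 24.7% lower than in preadipocytes with control siRNA, and 19.6% and 16.9% with PPAR gamma siRNA. Against preadipocytes, 7 feedback genes were higher and 8 lower with control siRNA (median 0.15), led by Dusp4 at 2.97 ± 0.19 and Nab2. With PPAR gamma siRNA 5 were higher and 7 lower (median -0.13), led by Dusp16 (1.14 ± 0.11) and Spred2 (-1.70 ± 0.12), neither of which changed this way on all of its probe sets.

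Upstream, 16 of 21 genes of the SRF, ternary complex and MAP kinase inputs had a probe set of their own. Between the siRNAs 7 were higher and 3 lower with PPAR gamma siRNA (median 0.23), where 19.9% of all genes were higher and 16.1% lower. Elk3, a ternary complex factor that represses Fos transcription until it is phosphorylated, was at 7.77, 8.05 and 8.04 with PPAR gamma siRNA, 5.93, 5.88 and 5.57 with control siRNA, and 9.36, 9.67 and 9.55 in preadipocytes, with no overlap between groups. Its change was 2.16 ± 0.13 between the siRNAs (adjusted p = 1.48e-07), -3.73 ± 0.13 when control siRNA was set against preadipocytes (adjusted p = 4.92e-10) and -1.57 ± 0.13 when PPAR gamma siRNA was (adjusted p = 2.16e-06). The kinase Map2k2 had the largest fall between the siRNAs (-0.56 ± 0.18, adjusted p = 0.0365). Srf itself, named after its values were seen, was higher with PPAR gamma siRNA than with control siRNA (0.57 ± 0.10) and lower than in preadipocytes with either siRNA, by -0.50 ± 0.10 with PPAR gamma siRNA and -1.07 ± 0.10 with control siRNA. Its probe set is of a type that may match other transcripts. Of the 16, 3 were higher and 8 lower with control siRNA than in preadipocytes (median -0.38), with the kinase Mapk9 the largest rise (0.51 ± 0.08), although 1 of its 3 probe sets was lower (-0.29 ± 0.10, adjusted p = 0.0375). For PPAR gamma siRNA, 4 were higher and 5 lower than in preadipocytes (median 0.039), with Elk4 the largest rise (0.58 ± 0.09). Over all genes, 27.1% were higher and 24.7% lower than in preadipocytes with control siRNA, and 19.6% and 16.9% with PPAR gamma siRNA.

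Among 20 measured bZIP partners and competitors, 7 were higher with PPAR gamma siRNA than with control siRNA and 3 were lower (median 0.10). The shares of all genes were 19.9% and 16.1%. The large Maf protein gene Maf had the largest rise (1.84 ± 0.14, adjusted p = 1.59e-06) and Atf6, a sensor of unfolded protein, the largest fall (-0.78 ± 0.10, adjusted p = 6.29e-05). Of the 6 Maf probe sets, 5 were higher, by 0.38 to 2.41, and 1 was lower (-0.45 ± 0.12, adjusted p = 0.0148). Against preadipocytes, 6 were higher and 5 lower with control siRNA (median -0.079), with the cyclic AMP-responsive factor Crem at 1.50 ± 0.12 and Maf at -2.83 ± 0.14. With PPAR gamma siRNA 5 were higher and 5 lower (median 0.037), with Crem at 0.97 ± 0.12 and the Jun dimerization partner Jdp2 at -1.12 ± 0.13. Over all genes, 27.1% were higher and 24.7% lower than in preadipocytes with control siRNA, and 19.6% and 16.9% with PPAR gamma siRNA.

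Genes known as AP-1 targets had 10 of 17 measured members higher with PPAR gamma siRNA than with control siRNA and 2 lower (median 0.48), where 19.9% of all genes were higher and 16.1% lower. The transcription factor Ets1 had the largest rise (1.97 ± 0.14, adjusted p = 9.33e-07), although 2 of its 4 probe sets did not pass the test (0.27, adjusted p = 0.306, and 0.20, adjusted p = 0.394). The collagenase Mmp13 had the largest fall (-2.03 ± 0.12, adjusted p = 2.12e-07). It averaged 3.20 ± 0.18 with PPAR gamma siRNA, below the median of all values, against 5.24 ± 0.23 with control siRNA, so the size of its fall is uncertain. Against preadipocytes, 27.1% of all genes were higher and 24.7% lower with control siRNA, and 19.6% and 16.9% with PPAR gamma siRNA. Of the AP-1 targets, 2 were higher than in preadipocytes and 10 lower with control siRNA (median -0.61). The growth factor Vegfa was at 1.74 ± 0.14 there and the stromelysin Mmp3 at -4.88 ± 0.14. With PPAR gamma siRNA 3 were higher and 10 lower (median -0.77), with the cytokine Il6, whose preadipocyte level of 3.99 was also below the median, at 1.39 ± 0.18 and Mmp3 at -4.57 ± 0.14. Several of these targets are also matrix or growth genes of fibroblasts, and the preadipocyte and fibroblast markers moved the same way in these comparisons, and their part in the targets' changes was not tested.

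EGR targets had 5 of 12 measured members higher with PPAR gamma siRNA than with control siRNA and 3 lower (median 0.092), where 19.9% of all genes were higher and 16.1% lower. The membrane metalloproteinase Mmp14 had the largest rise (2.38 ± 0.09, adjusted p = 3.87e-09) and Vegfa the largest fall (-0.64 ± 0.14, adjusted p = 0.00476). Cebpb, the adipogenic factor known to act downstream of Egr2, was lower with PPAR gamma siRNA (-0.46 ± 0.12, adjusted p = 0.0132) and was named after its values were seen. Against preadipocytes, 1 EGR target was higher, Vegfa, and 7 lower with control siRNA (median -0.81), with Mmp14 at -2.85 ± 0.09. For PPAR gamma siRNA, 2 were higher and 7 lower (median -0.51), with Vegfa at 1.09 ± 0.14 and the matrix protein Thbs1 at -1.33 ± 0.17. Against preadipocytes, 19.6% of all genes were higher and 16.9% lower with PPAR gamma siRNA, and 27.1% higher and 24.7% lower with control siRNA. The preadipocyte and fibroblast markers were higher in 6 of 6 genes between the siRNAs (median 1.73). They were lower than in preadipocytes in 4 of 6 with PPAR gamma siRNA (median -1.10) and in 6 of 6 with control siRNA (median -3.28). Their part in the changes of EGR targets was not tested. The gene lists overlap, for instance in Vegfa, Nab2, Dusp1, Zfp36 and Maff, so the counts of different lists are not independent.

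Heat shock and cell dissociation genes, many of them known to respond when cells are detached, were counted beside the members because both adipocyte groups had been detached. Between the siRNAs, 7 of 14 measured were higher with PPAR gamma siRNA and 2 lower (median 0.30), beside 19.9% and 16.1% of all genes. The small chaperone Cryab had the largest rise (2.72 ± 0.14, adjusted p = 4.50e-08) and the mitochondrial chaperonin Hspd1 the largest fall (-0.94 ± 0.08, adjusted p = 4.98e-06). Against preadipocytes, 3 were higher and 7 lower with control siRNA (median -0.31), with Hspb1 at 0.84 ± 0.10 and Cryab at -2.28 ± 0.14. For PPAR gamma siRNA, 3 were higher and 3 lower (median -0.048), with Hspb1 at 1.34 ± 0.10 and Dnaja1 at -0.74 ± 0.08. Over all genes, 27.1% were higher and 24.7% lower than in preadipocytes with control siRNA, and 19.6% and 16.9% with PPAR gamma siRNA. The part of a response to detachment in the members' levels was not tested. Among the list genes named above, a dimmer probe set of Gadd45b, Plk2, Jdp2, Crem, Elk3, Elk4 and Cryab did not pass the test in at least 1 comparison for which the gene was named. The other probe sets of Egr3 and Cebpb were not checked.

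**Figure D5:**
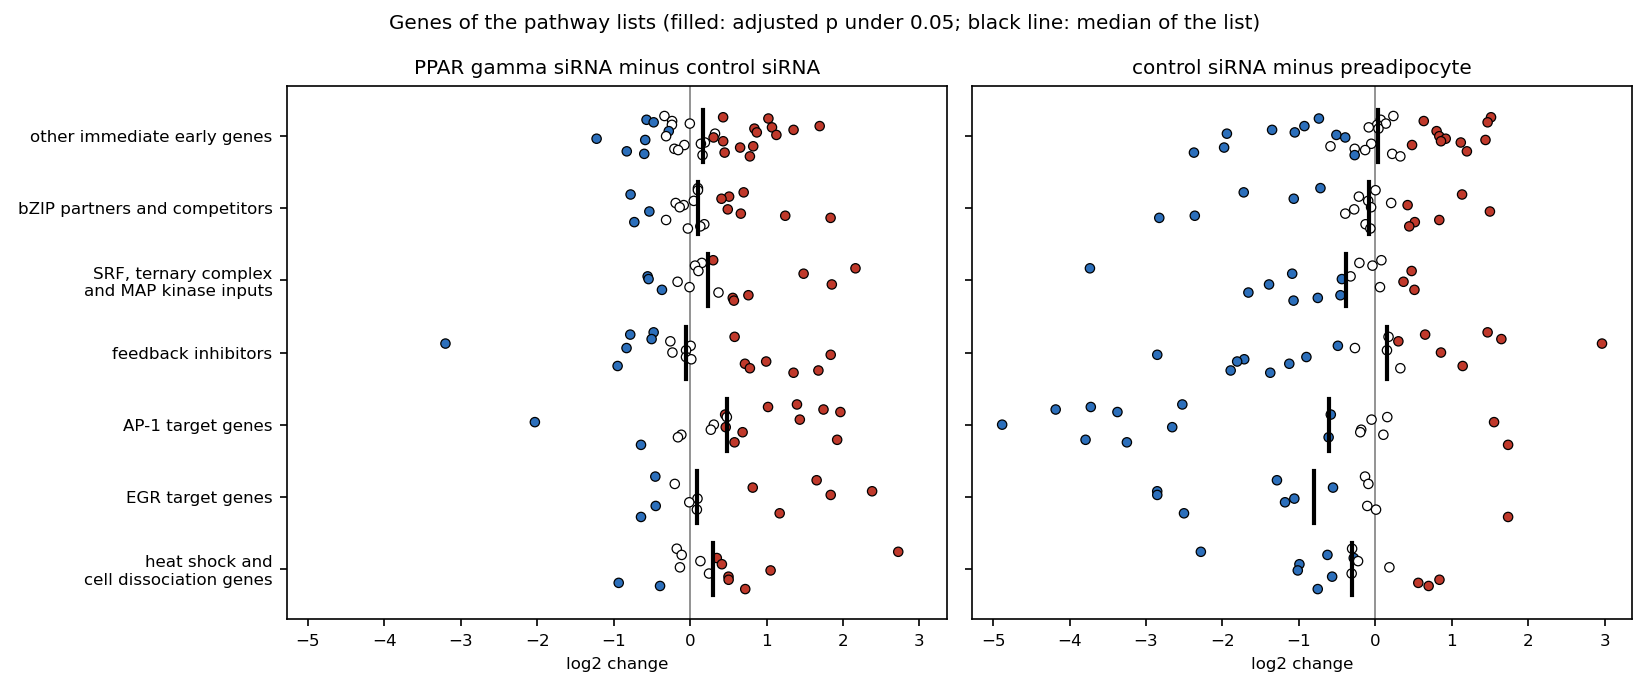
Log2 change of every measured gene of the 7 lists, with PPAR gamma siRNA minus control siRNA on the left and control siRNA minus preadipocyte on the right; filled points passed an adjusted p under 0.05, red higher and blue lower, and black lines are medians. Most AP-1 targets that passed lie right of 0 in the left panel and left of 0 in the right panel.

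Among the members, 5 spanned at least 1 log2 unit between group means, and the genes closest to them in pattern were taken by Pearson's r over the 9 arrays among 3976 genes of the same minimum span. The arrays form 3 groups, so a high r mainly reflects a shared order of the group means. Closest to Fos were Garnl3 (r = 0.994) and Slc16a4 (r = 0.990), and closest to Fosl1 were Kpna2 (r = 0.985) and Pla2g7 (r = 0.981). Closest to Fosl2 were Tm7sf3 (r = 0.996) and Kif16b (r = 0.995), to Junb Plekhg5 (r = 0.977) and Trafd1 (r = 0.976), and to Egr1 Tmem44 (r = 0.993) and Ecm1 (r = 0.989). No other member was among these closest genes. Tmem44 was at 7.41 with PPAR gamma siRNA, 5.61 with control siRNA and 6.81 in preadipocytes, and Ecm1, a matrix protein, at 10.23, 8.33 and 9.62.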

How the data were processed

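RNA was measured on 9 single-colour arrays. The deposited values are log2 probe set summaries that the authors normalised between arrays (array medians 4.82 to 4.89). The log2 scale was read from their range. Per the submitters' processing notes, MAS5, RMA and affy 1.16.0 were used, with no role or order given. Precision is limited by the number of arrays, 3 in each group.

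No scaling was added. After removal of 64 control probe sets, 45037 were tested with limma 3.58.1 in R 4.3.3: a mean per group over the 9 arrays, moderated variances, two-sided tests, Benjamini-Hochberg adjustment per comparison and a threshold of 0.05. Symbols came from the platform annotation, which lists 35890 probe sets, 932 of them with several genes and not named here. A gene was its single-symbol probe set of highest mean (18193 genes from 34945 probe sets). The code was tested on simulated data.

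The members, lists and settings were chosen with earlier results of these data known. Named genes were the members, Pparg, the called gene with the largest rise and fall of each list and comparison (3 each for other immediate early genes), and the 2 genes closest in pattern to each member spanning at least 1 log2 unit. Outside this rule, Egr3, Egr4, Srf and Cebpb were named after their values were seen, and cell type markers from their lists. Alternatives were quantile normalisation, median centring, omission of dim probe sets, the compared groups alone, a gene's mean over its probe sets, omission of x and s probe sets, robust variances with an intensity trend, a replicate block, the Actb 3' minus 5' difference as a covariate, a 2-fold minimum and omission of each array.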

Additional observations from a re-analysis of the deposited data

How the results depend on the processing

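The calls on Fos, Fosl1, Fosl2, Junb and Egr1 between the siRNAs kept direction and significance under all 18 other settings that give a change, and so did those on Fos, Fosl1, Fosl2, Jun, Jund and Egr1 for control siRNA against preadipocytes, and those on Fos, Fosl1, Jun, Junb, Egr1 and Atf3 when PPAR gamma siRNA was set against preadipocytes. No setting used the dimmer probe set alone. On it, Fosl1 and Fosl2 did not pass between the siRNAs (adjusted p = 0.147 and 0.523). Nor did Jund for control siRNA against preadipocytes (adjusted p = 0.331). Across the settings, sign changes occurred only for differences that passed no setting. Between the siRNAs, Atf3 was -0.053 with quantile normalisation and ranged from -0.071 to 0.23 when 1 array was left out, Jun from -0.011 to 0.21 and Fosb from -0.084 to 0.22. Egr2 against preadipocytes with PPAR gamma siRNA was -0.073 with the Actb covariate, -0.074 with the mean of both probe sets and -0.16 to 0.31 when 1 array was left out. The cause was not tested. With a 2-fold minimum, fewer pass by construction: 4 members between the siRNAs, 3 between control siRNA and preadipocytes and 3 between PPAR gamma siRNA and preadipocytes, and 1871, 3544 and 1693 genes. With 1 array left out, member counts ranged from 5 to 6, 7 to 9 and 6 to 8 in the same order, and gene counts from 5851 to 6349, 8217 to 9514 and 5374 to 6721. With a replicate block, 5, 8 and 6 members and 6314, 9199 and 6356 genes were called, against 5, 8 and 7 members and 6534, 9427 and 6632 genes without it; Jund against preadipocytes with PPAR gamma siRNA was the member call that ended. Deviations of same-numbered arrays correlated at -0.19 to 0.17, 0.0088 to 0.097 and -0.098 to -0.0065 in the same order. The arrays of the first-named group correlated best with their own number in 1, 2 and 0 of 3 cases. With 3 arrays in each group, these correlations say little about pairing. The numbers only name technical replicates, and for that reason they were not taken as pairs. The lower the signal, the less a change can show. Fosb and the second Jund probe set lay below the median of all values, as did Mmp13 with PPAR gamma siRNA and in preadipocytes. Egr4 lay below it by its mean in every group (4.59 with PPAR gamma siRNA, 4.83 with control siRNA and 4.81 in preadipocytes). So did, with PPAR gamma siRNA, the means of the second Fosl1 probe set (4.71) and of Dusp4 (4.70). These are examples and not a full list.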
